A study of Mus musculus with 7 samples.

Results

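The tumour or stromal cells were the cells whose deposited annotation reads "Tumor/stromal cells", the single annotation of the data set that names no immune cell type. They made up 384 of 28644 cells, and the remaining 28260 cells carried 22 immune annotations. The annotation is the submitters' own and was made from the same cells, so differences between the tumour or stromal cells and the immune cells are described here without a test. Genotypes were compared over mice.

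The cells came from a single-cell RNA sequencing experiment with the 10x Genomics 5' kit on 7 mice, in 7 libraries. CT-2A cells, a mouse glioma line, had been injected into the brain, and the tumour-bearing hemisphere was dissociated, frozen, thawed and sorted for live cells positive for CD45, CD11b or both. The gate was set for leukocytes, so these 384 cells are the cells without an immune annotation that still passed it, and their number does not measure how many such cells the tumour held. The 4 KO mice carried the Sall1CreERT2 driver on a B6;129 background together with floxed Siglece alleles on a B6.129P2 background, and the 3 WT mice carried the floxed alleles without the driver. All 7 mice received tamoxifen, 2.5 mg per injection, daily from day 7 to day 21 after tumour injection and every other day from then on. They were 8 to 12 weeks old at injection. The driver uses Sall1, a transcription factor gene of microglia, and Siglece encodes an inhibitory receptor for sialic acids on myeloid cells. Driver and floxed alleles are carried by the host mice and not by the injected line, so the genotype is that of the host. The series gives 3 WT and 4 KO mice, as many as libraries, and each library is called a mouse here. The labels do not say outright that each library is 1 animal, and p-values measure the spread between libraries.

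Glioma cells can express neural stem cell genes and mesenchymal genes side by side. Non-malignant stroma of a brain tumour includes endothelial cells, which line vessels, pericytes, which wrap them, and fibroblasts, which deposit collagen. Sparc, the marker given for these cells, encodes a secreted matrix protein that binds collagen and is also made by microglia and endothelial cells.

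Between 1 and 121 tumour or stromal cells were recovered per mouse. KO mouse 1 had 17 of 1410 cells (1.21%), KO mouse 2 had 121 of 5305 (2.28%), KO mouse 3 had 1 of 4744 (0.0211%) and KO mouse 4 had 57 of 5856 (0.973%). WT mouse 1 had 37 of 2934 cells (1.26%), WT mouse 2 had 48 of 4449 (1.08%) and WT mouse 3 had 103 of 3946 (2.61%). The 2 genotypes overlapped, with KO mouse 3 lowest and WT mouse 3 highest. The exact (Clopper-Pearson) 95% interval ran from 0.000534% to 0.117% in KO mouse 3 and from 2.14% to 3.16% in WT mouse 3, and such intervals cover counting error only. The mean share was 1.12% ± 0.928 (SD, n = 4) in KO and 1.65% ± 0.837 (SD, n = 3) in WT, and the difference was within the spread between mice (two-sided exact permutation test, p = 0.343, smallest possible p 0.0286). The sign of the difference turned when the denominator left out T, NK and B cells, with the KO mean then 0.275 percentage points above the WT mean.

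These cells were the most deeply sampled of the 23 annotations. Their median was 20569 UMIs (unique molecular identifiers, each standing for 1 captured transcript) and 5421 detected genes per cell, against 5589.5 UMIs in immune cells. The UMIs of the tumour or stromal cells were summed per mouse, and levels are given as CPM, the usual scaling of counts to a common total per mouse. The sums ran from 1046949 UMIs in WT mouse 1 to 2381422 in WT mouse 3 among the 5 libraries with at least 20 such cells (KO mice 2 and 4 and the WT mice). The genotype tests other than that of the share used those 5 libraries, and ranges of levels below are over them unless stated. Whole libraries held 16037214 to 38966377 UMIs. Of all cells, 926 carried a barcode that also occurred in another library. Among the tumour or stromal cells 13 did, and for 0 of them was the other cell also a tumour or stromal cell.

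The tumour or stromal cells of every mouse expressed Xist, the RNA that silences an X chromosome in female cells, whatever the sex of the host. Xist was at 640.3 CPM in KO mouse 1, 759 in KO mouse 2, 1270.4 in the lone cell of KO mouse 3 and 750.3 in KO mouse 4. It was at 847 CPM in WT mouse 1, 443 in WT mouse 2 and 759 in WT mouse 3. The immune cells of KO mice 3 and 4 and of WT mice 1 and 2 were male by their transcripts, with Xist between 0.254 and 1.18 CPM and the summed level of 4 Y-linked genes (Ddx3y, Eif2s3y, Kdm5d and Uty) between 128 and 152 CPM. In the tumour or stromal cells of the same 4 mice the Y-linked sum was 0, 6.73, 0 and 3.36 CPM. Xist and the Y-linked genes thus divided these cells from the immune cells of their own mouse in all 4 male hosts, while the 3 female hosts gave no such contrast.

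Cell by cell, 124 of the 143 tumour or stromal cells from male hosts had an Xist UMI and 8 had a Y-linked UMI. All 8 also had Xist, 0 cells had a Y-linked UMI without it, and 19 had neither, at a median depth of 22155 UMIs. Per cell, leukocyte marker genes gave a median of 0.241% of UMIs in the 8 cells with a Y-linked UMI and 0.0291% in the others. With every cell thinned to 5000 UMIs, 77.5% of 142 tumour or stromal cells of male hosts kept an Xist UMI (1 shallower cell left out), against 0.225% of 10650 immune cells (7190 left out). For Y-linked UMIs the thinned shares were 2.82% and 49.0%. Before thinning, the shares were 86.7% and 0.297% for Xist and 5.59% and 57.5% for the Y-linked genes. The sex of the CT-2A line was not measured here.

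**Figure D1:**
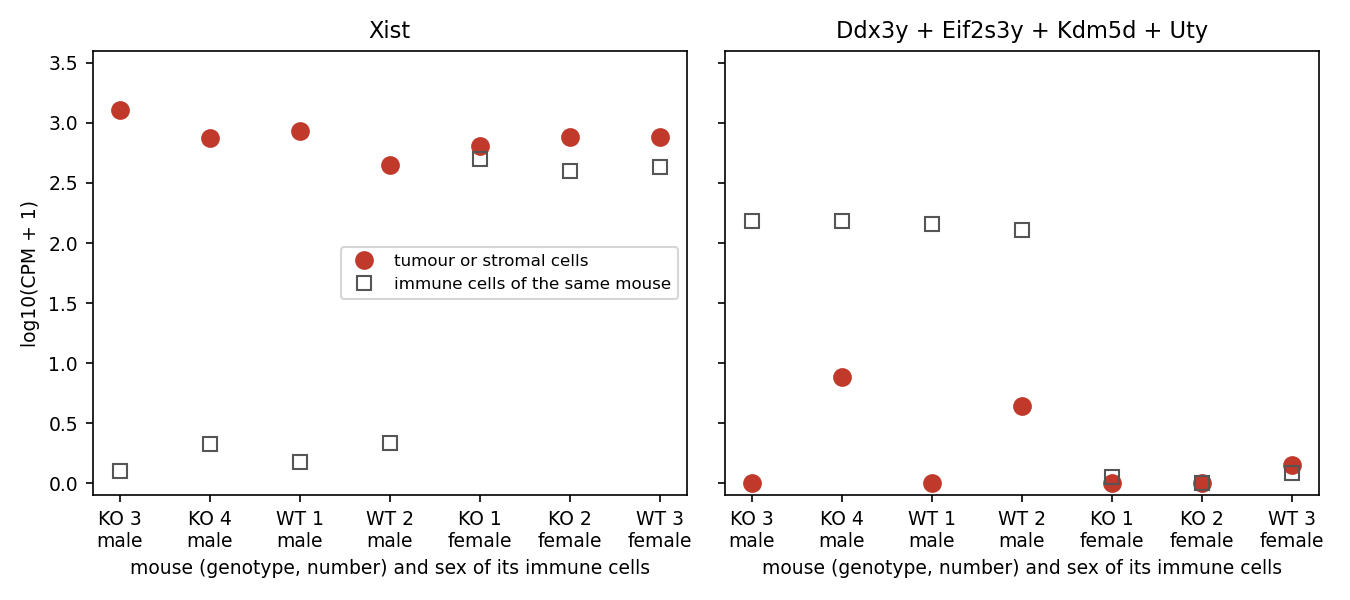
Levels of Xist (left) and of the sum of Ddx3y, Eif2s3y, Kdm5d and Uty (right) as log10(CPM + 1) in each mouse, for its tumour or stromal cells (filled circles) and its immune cells (open squares). In the 4 mice with male immune cells Xist was between 443 and 1270.4 CPM in the tumour or stromal cells and at most 1.18 CPM in the immune cells, and KO mouse 3 rests on 1 cell.

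Sparc was present in the tumour or stromal cells but did not set them apart from microglia. Its level was 621 CPM in KO mouse 2, 546 in KO mouse 4, 572 in WT mouse 1, 723 in WT mouse 2 and 396 in WT mouse 3, against a median of 6.19 over the immune annotations and 1725 in Microglia. The 2 genotypes overlapped for Sparc.

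Neural stem cell and glial markers were present in part. Sox2, a transcription factor of neural stem cells, ranged from 38.8 to 90.0 CPM and was 17.7-fold over the highest immune annotation. Such folds are ratios of mean levels with 1 CPM added to both. Nes, the intermediate filament nestin of neural progenitors, ranged from 136 to 207 CPM (13.3-fold), and Sox9, a glial and chondrocyte lineage factor, from 84.6 to 184 CPM (42.3-fold). Pdgfra and Cspg4, both known from oligodendrocyte precursors, ranged from 57.1 to 81.2 CPM and from 27.5 to 62.1 CPM. The other 4 of the 6 markers of those precursors, Sox10, Olig1, Olig2 and Gpr17, were at 0 UMIs. Of the 10 glial progenitor or glioma markers, 5 had no UMI in any of the 384 cells: Olig1, Olig2, Fabp7, Ptprz1 and Bcan. A count of 0 allows a UMI in up to 0.781% of cells, over all 384, and up to 0.369 CPM over the 8139585 UMIs of the 5 libraries. The first limits cells with a UMI and not cells that express the gene. Both are approximate 95% limits, 3 counts over the pooled total. They treat cells or UMIs as independent and leave out the spread between mice.

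Markers of mature brain cells were largely missing. The astrocyte genes Gfap, S100b and Slc1a3, the myelin genes Mog, Mag, Cldn11 and Mal and the neuronal genes Rbfox3, Snap25 and Stmn2 were all at 0 UMIs. Gja1, the astrocyte gap junction gene, was the exception among the 8 astrocyte markers with 82.1 to 129.7 CPM. Tubb3, a neuronal tubulin gene, had 153 to 290.2 CPM against at most 5.69 CPM in an immune annotation.

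Endothelial markers were sparse, and fibroblast and pericyte markers were present in part. The endothelial genes Cldn5, Cdh5 and Slco1a4 were at 0 UMIs and the 10 endothelial markers summed to 7.77 to 27.0 CPM. The fibroblast markers Dpt and Slc6a13 were at 0 UMIs, Dcn had 3.82 to 22.6 CPM, and of the fibrillar collagen I genes Col1a1 had 0 to 16.7 CPM and Col1a2 0 to 1.47 CPM. The summed fibroblast list reached 369 to 1098 CPM, of which Col3a1, a fibrillar collagen shared with many mesenchymal cells, had 293 to 992 CPM. Pdgfra, given above, is also a fibroblast marker and was 23.2-fold over the highest immune annotation. Pericyte and smooth muscle markers summed to 10.1 to 133 CPM. In KO mouse 2 a single cell accounted for 115 of 116 UMIs of Rgs5, a pericyte gene. That cell also held 22 UMIs of Kcnj8, 14 of Abcc9, 25 of Pdgfrb and 7 of Notch3, with 0 UMIs of Hmga2 and of Sox9. Of other genes high in the tumour or stromal cells, it held 2 UMIs of Twist1, 7 of Lamb1 and 53 of Serpinh1.

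Hmga2 and some mesenchymal genes were found in nearly all cells. Vim, the intermediate filament vimentin, ranged from 3940.0 to 6141 CPM, where the highest immune annotation, Tregs, had 2811. S100a6, a calcium-binding protein gene, ranged from 4620.4 to 11209.9 CPM against 2117 in mo-DCs. Hmga2, a chromatin protein of embryonic and tumour tissue, was at 470.4 CPM in KO mouse 2, 709.9 in KO mouse 4, 389 in WT mouse 1, 694 in WT mouse 2 and 524 in WT mouse 3. An Hmga2 UMI was found in 95.8% of the tumour or stromal cells and in 1.63% of immune cells, with median depths of 20569 and 5589.5 UMIs. At least 1 UMI of Hmga2, Twist1, Sox9 or Nes was found in 382 of the 384 cells and in 3.80% of immune cells. Most of that count came from Hmga2. A Nes UMI was found in 76.6% of the tumour or stromal cells and a Sox9 UMI in 68.2%. Of the mesenchymal markers, Vim and S100a6 had a UMI in 100% of the cells, Fn1 in 52.9% and Tnc in 2.34%. Hmga2 and some mesenchymal genes were thus found in nearly all cells and neural stem cell genes in a smaller share. The defining endothelial markers and most defining fibroblast and mature glial markers were at or near 0.

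**Figure D2:**
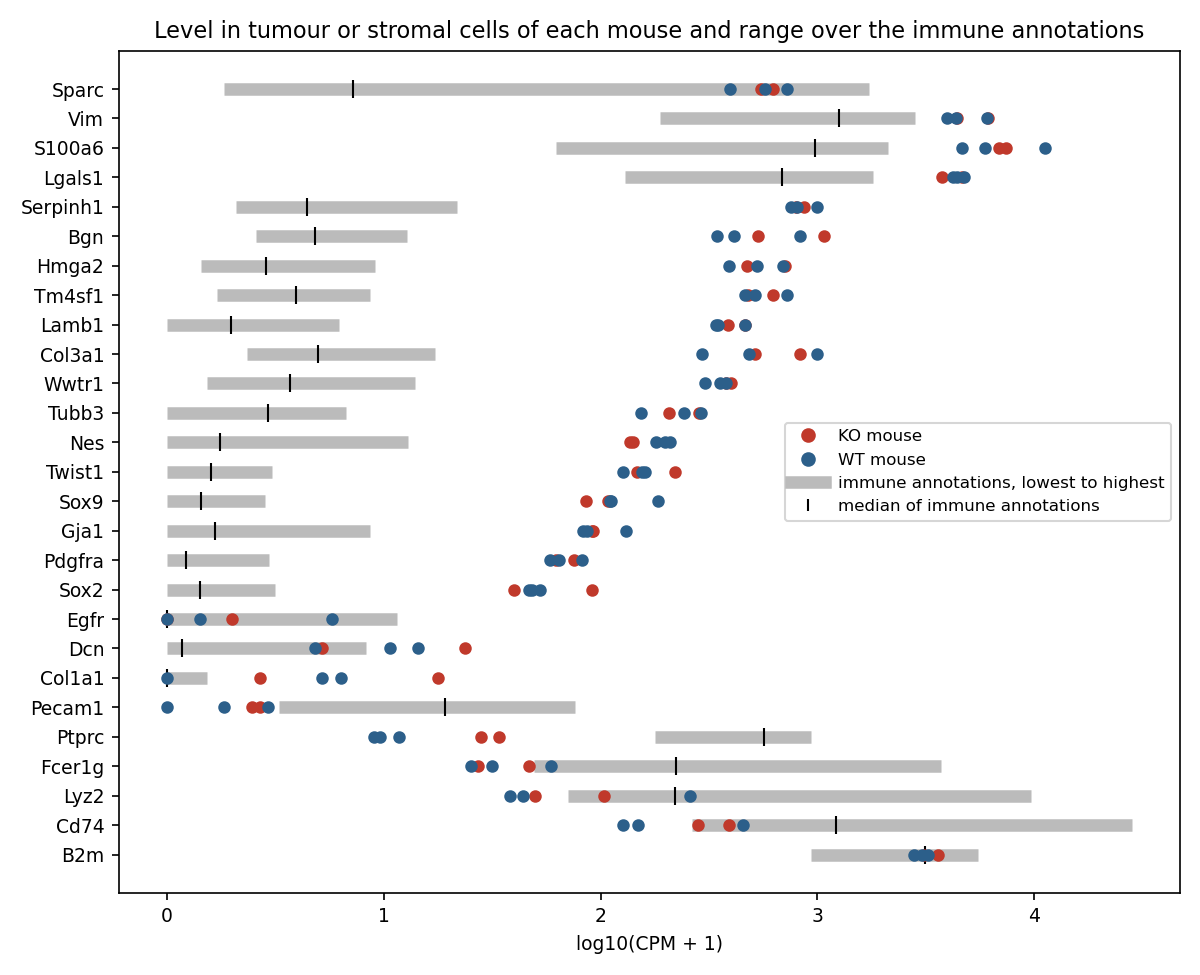
Level of marker and surface genes as log10(CPM + 1): points are the tumour or stromal cells of the 5 mice with at least 20 such cells (red KO, blue WT), grey bars run from the lowest to the highest of the 22 immune annotations, and the black tick is their median. Genes such as Hmga2, Lamb1 and Sox2 lie to the right of the bars, Sparc lies inside its bar, and Ptprc lies to the left.

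Of 9254 genes with a mean of at least 10 CPM, 525 (5.67%) were at least 4-fold over every immune annotation. With 10 CPM added in place of 1 the count was 222, and with a minimum mean of 50 CPM it was 200. At the edge of that limit, Gm14419, Cenpv and Gstm5 lay just inside at 4.00, 4.01 and 4.01, and Ackr3, Mthfd2l and Magef1 just outside at 3.98, 3.97 and 3.96. The 20 genes with the largest ratio fell into a few roles. Adhesion and surface genes included Tenm3, a teneurin adhesion protein of neurons, at 74.2-fold. Tm4sf1, a tetraspan surface protein, was at 64.9-fold, and the cadherins Cdh13 and Cdh2 (N-cadherin) at 61.9-fold and 50.6-fold. Piezo2, a mechanically gated ion channel, was at 57.8-fold.

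Matrix genes in the same top group were Lamb1, a laminin chain of basement membranes (64.3-fold), Bgn, the proteoglycan biglycan (49.7-fold), Pxdn, a peroxidase that cross-links collagen IV (49.5-fold), and Thbs2, thrombospondin 2 (40.1-fold). Enzymes and cofactors of collagen maturation joined them, with Fkbp10 at 45.7-fold and Pcolce at 40.4-fold. The transcription and chromatin regulators were Hmga2 (61.1-fold), Twist1 (52.9-fold), Sox9 (42.3-fold) and Nfib (40.8-fold). Twist1 encodes a mesenchymal basic helix-loop-helix factor and Nfib a factor of glial development. The rest were Prkg2, a cGMP-dependent kinase (60.3-fold), the orphan receptor Gpr149 (52.9-fold), the caveolar protein gene Cavin3 (52.3-fold), Itgbl1 (42.4-fold) and Bok, a BCL2 family member (41.4-fold). For Tenm3 the levels were 224 and 188 CPM in KO mice 2 and 4 and 159, 126 and 148 CPM in the WT mice, against at most 1.29 CPM in an immune annotation. For Lamb1 they were 386 and 462 CPM in KO and 347, 462 and 338 CPM in WT, against at most 5.22 CPM.

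Each gene list is given by a median over all its members. The value is the log2 ratio of the tumour or stromal level to the median immune level. Over the 10431 tested genes its median was 0.71, whereas the list medians also include members too low to be tested. Mesenchymal transcription factors and intermediate filaments stood highest, at 5.03, with 9 of 15 members at least 4-fold over every immune annotation. Among them were Wwtr1, which encodes the Hippo pathway effector TAZ, at 302 to 397 CPM, and Prrx1, a limb and mesenchyme homeobox gene, at 96.2 to 163 CPM. Collagens and matrix glycoproteins followed at 3.40 (12 of 29 members) and matrix processing at 2.73 (6 of 26 members). Serpinh1, the collagen chaperone HSP47, had 753 to 997 CPM against at most 20.7 CPM in an immune annotation. Proliferation genes had a median of 2.28 (0 of 24 members) and adhesion and integrin genes of 2.12 (3 of 24 members), with the integrin chain Itgb1 at 559 to 993 CPM.

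Signalling genes were present on both sides, as ligands and as receptors. Among the ligands, Mif, a macrophage migration inhibitory factor, had 1686 to 2562 CPM and Spp1, osteopontin, 754 to 1352 CPM. Spp1 was not confined to these cells, with 1197 CPM in Macrophages (P3). Vegfb, a vascular growth factor gene, had 132 to 317 CPM and Inhba, an activin subunit gene, 111 to 261 CPM. Kitl, the ligand of the receptor Kit, had 86.0 to 131 CPM against at most 48.4 CPM in an immune annotation. Among the receptors, Tnfrsf12a, the receptor for the cytokine TWEAK, had 281 to 329.7 CPM and was 6.59-fold over the highest immune annotation. Fgfr1, a fibroblast growth factor receptor, had 136 to 249.7 CPM and Axl, a receptor tyrosine kinase, 162 to 193 CPM, the latter below the 213 CPM of Microglia (Low-quality/activated). Egfr had 0 to 4.78 CPM. Kitl, like Prrx1 and Cdkn2a, was named after its values were seen.

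Most genes of antigen presentation lay below the immune median. The MHC class I list, which presents peptides to CD8+ T cells, had a median of -0.80, and 5 of its 15 members lay below every immune annotation. The share of all genes below every immune annotation was not computed. H2-K1 had 2023 to 2376 CPM and H2-D1 2210.5 to 2682 CPM, against immune medians of 2734 and 2976 CPM. B2m, the shared light chain, had 2782 to 3598 CPM, around its immune median of 3118 CPM. H2-Q4 lay above it, with a mean of 634 CPM against an immune median of 471 CPM. The MHC class II list had a median of -1.87. Cd74, its invariant chain, had 125 to 452 CPM against 28086 CPM in mo-DCs.

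Ligands of immune checkpoints and of phagocytosis had a median of -1.04, with 6 of 14 members below every immune annotation. That count again has no share over all genes beside it. Cd274, which encodes PD-L1, was at 14.3 CPM in KO mouse 2, 3.36 in KO mouse 4, 14.3 in WT mouse 1, 33.6 in WT mouse 2 and 15.1 in WT mouse 3, where cDC2 had 471 CPM. Cd47, the gene of a signal against phagocytosis, had 124 to 158 CPM against an immune median of 337 CPM. Of the ligands of the NK cell receptor NKG2D, Raet1e had 33.0 to 61.7 CPM (9.22-fold over the highest immune annotation) and Ulbp1 104 to 142 CPM.

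Sialic acids on tumour cells are the ligands of the receptor that Siglece encodes. The list for their synthesis, transfer and removal had a median of 0.00 relative to immune cells, and 8 of its 28 members had no UMI. Cmas, which activates sialic acid for transfer, had 47.0 to 64.4 CPM and Nans, a sialic acid synthase, 48.8 to 67.2 CPM, both close to the immune medians of 56.7 and 60.6 CPM. Tumour suppressor genes were detected, with Trp53 at 216 to 289 CPM and Cdkn2a at 14.8 to 32.4 CPM.

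Leukocyte RNA was low but not absent in these cells, although the gate selected for leukocyte surface proteins. Ptprc, which encodes CD45, was at 27.0 CPM in KO mouse 2, 32.8 in KO mouse 4, 8.60 in WT mouse 1, 10.8 in WT mouse 2 and 7.98 in WT mouse 3, against 564 CPM in the median immune annotation. Both KO values lay above all 3 WT values, and KO mouse 1, at 8.16 CPM, was among the WT values. A Ptprc UMI was found in 80 of the 384 cells (20.8%) and in 87.2% of immune cells, although the immune cells were sampled less deeply. Itgam, which encodes CD11b, had 0.421 to 10.4 CPM against 723 CPM in Microglia. The 9 pan-leukocyte markers summed to 116 to 284 CPM, where the highest immune annotation reached 13208 CPM, and 8 of the 9 lay below every immune annotation.

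All leukocyte marker lists together gave 0.0627% of UMIs in KO mouse 2, 0.0654% in KO mouse 4, 0.0415% in WT mouse 1, 0.0778% in WT mouse 2 and 0.0316% in WT mouse 3. The genotypes overlapped, with means of 0.0641% ± 0.00194 (SD, n = 2) in KO and 0.0503% ± 0.0243 (SD, n = 3) in WT (two-sided exact permutation test, p = 0.5, smallest possible p 0.1). With KO mouse 1 included the KO mean minus the WT mean was -0.000207 percentage points. The T cell list did not overlap, at 55.5 and 109.8 CPM in KO and 3.82, 11.8 and 9.45 CPM in WT, and 52.3% of its UMIs came from 3 cells. KO mouse 1 was among the WT mice for this list, at 8.16 CPM. The NK cell list did not overlap either, at 9.34 and 4.21 CPM in KO and 1.91, 0.672 and 2.10 CPM in WT, but it rests on 33 UMIs in all, and KO mouse 1 was among the WT mice at 2.04 CPM.

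Siglece, the deleted gene, was close to absent in these cells in both genotypes. Its UMIs numbered 0, 2, 1 and 0 in KO mice 1 to 4 and 2, 0 and 1 in WT mice 1 to 3. Its highest immune level was 81.7 CPM, in mo-DCs. Sall1, which drives the Cre, had 3.36 to 6.69 CPM in the tumour or stromal cells against 111 CPM in Microglia (Low-quality/activated). Both genes were below the count filter and were not tested.

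Most of the cells carried a cell cycle call of S or G2M in the deposited annotation, 74.2% in all. The share was 68.6% in KO mouse 2, 63.2% in KO mouse 4, 64.9% in WT mouse 1, 83.3% in WT mouse 2 and 90.3% in WT mouse 3. The highest share among the immune cells of the 7 mice was 33.7%. The proliferating immune annotations had higher shares than the tumour or stromal cells, with 100% in CD8+ T cells (Proliferating), 98.8% in Macrophages (Proliferating) and 87.4% in CD4+ T cells/Tregs (Proliferating). KO mice 2 and 4 and WT mouse 1 were close together, WT mice 2 and 3 were higher, and KO mouse 1, with 17 cells, was lower at 52.9%. The means were 65.9% ± 3.84 (SD, n = 2) in KO and 79.5% ± 13.1 (SD, n = 3) in WT (two-sided exact permutation test, p = 0.3). The smallest possible p was 0.1, so no difference of any size could have passed 0.05 in this test. Mki67, a marker of cycling cells, was at 215 and 168 CPM in KO and at 241, 260.1 and 244 CPM in WT. Top2a, the topoisomerase of dividing cells, was at 316 and 253 CPM in KO and at 336, 319.9 and 367 CPM in WT. KO values lay below WT values for both genes, and neither passed the test across all genes. In 3 of the 24 proliferation genes KO lay below WT and in 1 above, against 13.2% and 12% of all genes.

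Between genotypes, 3 of 10431 genes passed the threshold (0.0288%): Chac1 and Nme1 were lower in KO and Thy1 was higher. At an unadjusted p under 0.05, 452 genes were higher in KO (4.33%) and 447 lower (4.29%). The count of calls moved with the libraries used. No gene was called when WT mouse 3 was left out (554 genes at an unadjusted p under 0.05), and 16 genes were called by DESeq2 in place of edgeR. Without KO mouse 2, KO mouse 4 or WT mouse 2 the count was 17, 25 or 10.

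Chac1 encodes an enzyme that degrades glutathione and is a target of the transcription factor ATF4. It was at 13.3 CPM in KO mouse 2 and 8.41 in KO mouse 4, and at 36.3 CPM in WT mouse 1, 63.8 in WT mouse 2 and 55.4 in WT mouse 3. All KO values lay below all WT values, and KO mouse 1, which was outside the test, had 8.16 CPM. The log2 fold change was -2.22 ± 0.32 (SE; edgeR quasi-likelihood test, Benjamini-Hochberg adjusted p = 0.0354). The counts behind it were 27 and 10 UMIs in KO and 38, 95 and 132 in WT, and 1 cell of WT mouse 2 held 40 of its 95. With the top cell of each mouse removed the levels were 11.4 and 1.72 CPM in KO and 30.8, 38.4 and 50.9 CPM in WT, and the groups still did not overlap. The call was lost in 4 of 17 alternatives.

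Nme1, a nucleoside diphosphate kinase gene and a known MYC target, was at 45.5 and 38.4 CPM in KO and at 103, 99.2 and 124 CPM in WT. Its log2 fold change was -1.36 ± 0.20 (SE; edgeR quasi-likelihood test, Benjamini-Hochberg adjusted p = 0.0354). KO mouse 1 lay between the groups at 82.1 CPM. Of the Nme1 UMIs 93.1% sat in values that were not whole, as arise when reads are divided among similar genes, so its level is uncertain. The call was lost in 9 of 17 alternatives, which all kept the direction. The neighbouring and similar gene Nme2 was at 369 and 383 CPM in KO and 511, 552 and 596 CPM in WT, with a log2 fold change of -0.55 that did not pass the test (edgeR quasi-likelihood test, Benjamini-Hochberg adjusted p = 0.379).

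Thy1, a surface glycoprotein gene of T cells, fibroblasts and pericytes, was at 33.4 and 16.8 CPM in KO and at 0, 2.02 and 2.52 CPM in WT, with KO mouse 1 at 2.04 CPM among the WT values. In KO mouse 2 the cell with the pericyte markers held 34 of the 68 Thy1 UMIs, and in KO mouse 4 a single cell held 10 of 20. Without the cell with pericyte markers the log2 fold change was 3.19 in place of 3.79 and did not pass (edgeR quasi-likelihood test, Benjamini-Hochberg adjusted p = 0.0757), and 2 genes were then called. In all, the Thy1 call was lost in 7 of 14 alternatives. Ptprc and the T cell list were also higher in both KO mice, with a log2 fold change of 1.71 for Ptprc (edgeR quasi-likelihood test, Benjamini-Hochberg adjusted p = 0.0782). The T cell genes Cd3g and Cd3e had log2 fold changes of 3.57 and 3.56 (same test, adjusted p = 0.0648 and 0.0782). In the cells with no Ptprc UMI 1 gene was called and it was lower in KO, so Thy1 was not called there. That setting also had fewer cells, and the part of leukocyte RNA in the Thy1 result was not tested further.

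Chac1 belongs to the integrated stress response, in which phosphorylation of an initiation factor of translation lowers protein synthesis in general while the factor ATF4 is made and switches on genes of amino acid supply and redox control. ATF4 binds with C/EBP partners at a composite element in its target promoters. The letters TGATGNAA, searched on both strands (TTNCATCA on the other), stand here for that element. The promoter windows below, from RefSeq on GRCm38.p6, show the match in Chac1, the called gene, and in Asns, asparagine synthetase, a classical target named after its values were seen. Capitals mark the match.
Chac1: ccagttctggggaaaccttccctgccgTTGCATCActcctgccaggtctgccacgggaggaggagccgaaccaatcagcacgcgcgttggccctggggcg
Asns: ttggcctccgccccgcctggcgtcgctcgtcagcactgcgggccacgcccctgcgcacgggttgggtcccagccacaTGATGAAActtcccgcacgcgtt
The Chac1 window is chr2:119351022-119351121 on the plus strand, from -220 to -121 relative to the start site, and its match lies on the reverse strand from -193. The Asns window is chr6:7693210-7693309 on the minus strand, from -100 to -1, with the match from -23. Both lie upstream of the first exon. The letters occurred in 1304 of 32851 RefSeq promoters (3.97%), each of the same length around the start site, from which the printed windows are cut. They occurred in 8 of the 21 genes of the stress response list that had a promoter entry (38.1%). Here a gene counts when any of its entries matched, whereas the 3.97% is per entry, so the units differ. Of the 11 matched list genes whose KO values lay below every WT value, 3 had the letters (27.3%), namely Chac1, Asns and Herpud1. A match is a description of the sequence and does not show binding.

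Of the 23 genes of the integrated stress response list, 21 were tested and 20 had a fold change below 0, where 49.8% of all tested genes did. The median log2 fold change was -0.79, against 0.00 over all genes. In 13 of the 21 both KO values lay below all WT values, and in 0 above, against 13.2% and 12% of all tested genes. The 1 gene called was Chac1, and 12 of the 21 were lower at an unadjusted p under 0.05, against 4.29% of all genes. KO mouse 1, which was not in the fit, lay below every WT mouse in 18 of the 21 genes (85.7%) and in 40.3% of all genes tested. The WT mice are shared between that count and the fit, and KO mouse 1 had 17 cells. The list was chosen with earlier results of these data known, so these counts describe it and are not an independent test.

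The genes of serine and one-carbon metabolism, which supply glycine and folate-bound carbon, were among the lower ones. Mthfd2, a mitochondrial folate enzyme gene, was at 59.5 and 63.9 CPM in KO mice 2 and 4 and at 112, 121 and 175 CPM in WT mice 1, 2 and 3. The groups did not overlap, KO mouse 1 had 46.9 CPM, and the log2 fold change of -1.15 ± 0.23 (SE) did not pass (edgeR quasi-likelihood test, Benjamini-Hochberg adjusted p = 0.11). Aldh1l2, another mitochondrial folate enzyme gene, was at 8.36 and 3.36 CPM in KO and at 16.2, 12.1 and 41.2 CPM in WT, with the WT mice spread widely. Psat1 and Phgdh, of the serine synthesis pathway, were at 92.4 and 121 CPM against 176, 181 and 228 CPM, and at 267 and 199 CPM against 316, 373 and 376 CPM. Shmt2, which converts serine to glycine, was at 96.8 and 72.3 CPM in KO and at 138, 115 and 187 CPM in WT. None of these 5 genes passed the test across all genes. Psat1 and Shmt2 were named after their values were seen, as were Asns, Slc3a2, Slc7a5, Sesn2, Atf4 and Herpud1 and the members with overlap named below.

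Asns was at 71.8 and 40.4 CPM in KO and at 138, 87.4 and 137 CPM in WT, with 48.9 CPM in KO mouse 1. Its log2 fold change was -1.07 ± 0.26 (SE) and did not pass (edgeR quasi-likelihood test, Benjamini-Hochberg adjusted p = 0.339). The amino acid transporter genes Slc3a2 and Slc7a5, which encode the chains of 1 heterodimer, were at 151 and 129 CPM against 265, 188 and 279.7 CPM, and at 70.3 and 41.2 CPM against 88.8, 73.9 and 109.6 CPM. Sesn2, a sensor of leucine, was at 11.3 and 19.3 CPM in KO and at 37.3, 22.2 and 24.8 CPM in WT. In all of these the KO mice lay below the WT mice. Atf4 itself was at 139 and 149.7 CPM in KO and at 202, 193 and 225 CPM in WT, with a log2 fold change of -0.51 (edgeR quasi-likelihood test, Benjamini-Hochberg adjusted p = 0.379). Cebpb, a C/EBP partner, was at 186 and 178 CPM in KO and at 315, 225 and 414 CPM in WT, and KO mouse 1 was inside the WT range at 247 CPM. Herpud1, which acts in degradation of proteins from the endoplasmic reticulum, differed least among those without overlap, at 42.8 and 58.0 CPM against 73.5, 59.1 and 72.2 CPM. Other members overlapped between genotypes, among them Ddit3 (the factor CHOP), Atf3, Atf5, Trib3 and the chaperone gene Hspa5.

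The list's median was near 0 in G1 cells and smaller in size without WT mouse 3. In cells called S or G2M 0 genes were called and in cells called G1 0 of 5431, both splits chosen after seeing the data, with 877 and 212 genes at an unadjusted p under 0.05. In G1 cells alone, of which there were 38 and 21 in KO and 13, 8 and 10 in WT, the list's median was -0.03 and 8 of 15 tested members were lower. In the S or G2M cells, 83 and 36 in KO and 24, 40 and 93 in WT, it was -0.81 and 21 of 22 tested members were lower. Without WT mouse 3 it was -0.53. Fewer members passed the count filter in G1 cells than in S or G2M cells, so those medians cover different sets of genes. The share of S or G2M cells was higher in WT mice 2 and 3, and its part in the list's difference was not tested beyond these splits.

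**Figure D3:**
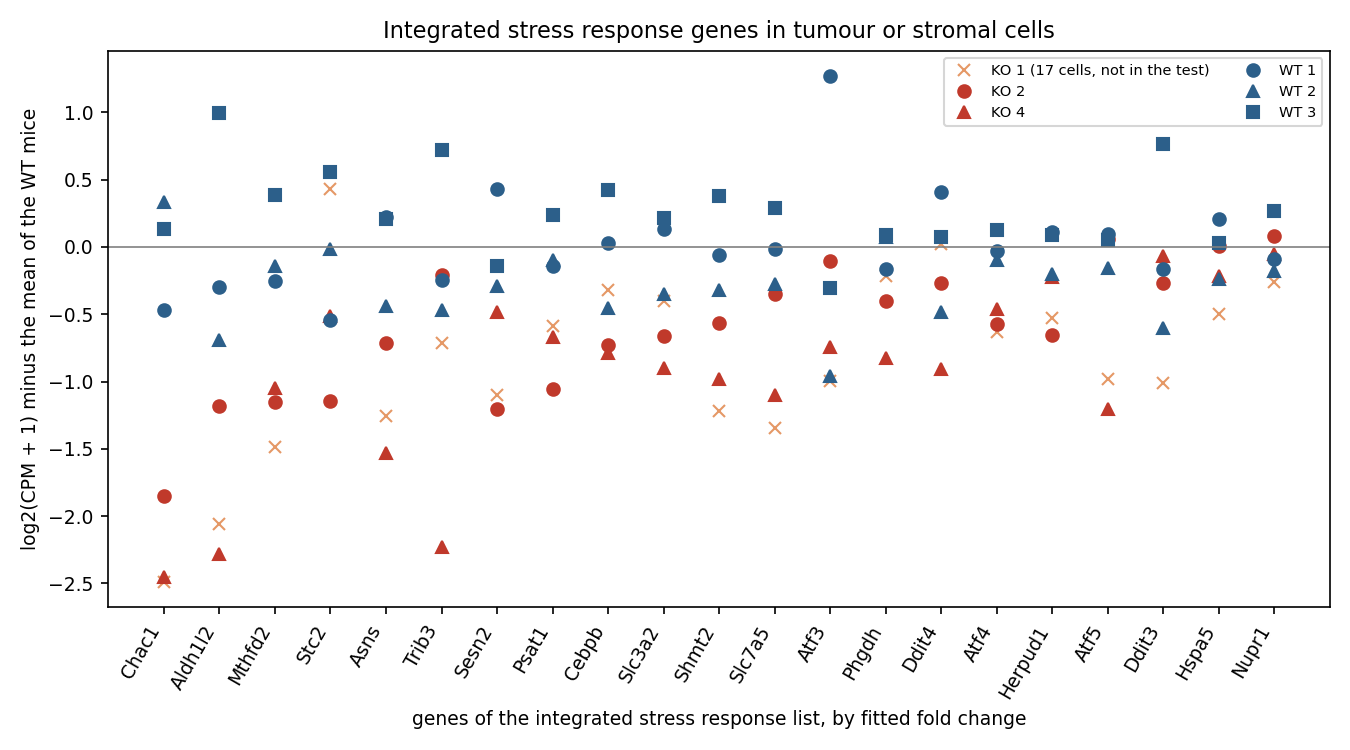
Level of each of the 21 tested integrated stress response genes in each mouse, as log2(CPM + 1) minus the mean of the WT mice, ordered by fitted fold change. Red marks are the KO mice in the test, crosses are KO mouse 1 with 17 cells, and blue marks are the WT mice. The red marks lie below every blue mark in 13 genes, and for Chac1 they lie lowest.

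Members of the lists below are called higher or lower by the sign of their fitted fold change. Among these lists, MYC and nucleolar genes had 13 of 17 tested members lower in KO, with a median log2 fold change of -0.17. In 6 of the 17, KO lay below WT, against 13.2% of all genes, and Nme1 was the called member. KO mouse 1 lay below every WT mouse in 7 of the 17 (41.2%, against 40.3% of all genes). Myc itself, named after its values were seen, was at 85.5 and 85.8 CPM in KO and at 132, 101 and 130.2 CPM in WT, with a log2 fold change of -0.49 (edgeR quasi-likelihood test, Benjamini-Hochberg adjusted p = 0.456). The nucleolar genes of ribosome assembly Npm1 and Ncl overlapped between genotypes. Npm1 was at 1946 and 2046 CPM in KO and at 1912, 2503 and 2374 CPM in WT, and Ncl at 790.5 and 538 CPM against 884, 739 and 868 CPM. The proliferation list had 17 of 24 members lower, with a median of -0.10, and 0 of them called.

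Matrix processing and turnover genes had 10 members higher in KO and 8 lower, with a median of 0.02, 0 with KO above WT (against 12% of all genes) and 2 with KO below (against 13.2%). For collagens and matrix glycoproteins, 17 of 19 tested members were higher in KO, where 50.2% of all tested genes were, with a median of 0.24, 3 with KO above WT and 0 called. KO mouse 1 lay above every WT mouse in 5 of the 19 (26.3%, against 26.2% of all genes tested). Col4a1, a basement membrane collagen chain, was at 329 and 447 CPM in KO mice 2 and 4 and at 296, 162 and 169 CPM in WT mice 1, 2 and 3. KO lay above WT, KO mouse 1 had 212 CPM inside the WT range, and the log2 fold change of 0.93 ± 0.26 (SE) did not pass (edgeR quasi-likelihood test, Benjamini-Hochberg adjusted p = 0.379). In a sub-cluster of the tumour or stromal cells Col4a1 was at 925 CPM, against 161 CPM outside it. That sub-cluster held 46 of 121 cells of KO mouse 2 and 6 of 57 of KO mouse 4. In WT mice 1, 2 and 3 it held 12 of 37, 5 of 48 and 7 of 103 cells. The part of the sub-cluster in the difference was not tested. Col4a2, the partner chain of Col4a1, was at 157 and 169 CPM in KO and at 131, 88.7 and 70.5 CPM in WT, with KO mouse 1 at 137 CPM. Thbs1, thrombospondin 1, was at 548 and 353 CPM in KO and at 281, 226 and 281 CPM in WT, and KO mouse 1 at 371 CPM was also above the WT mice. Neither passed the test.

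Adhesion and integrin genes had 16 of 18 members higher in KO, against 50.2% of all genes, with a median of 0.41 and Thy1 as the called member. KO lay above WT in 3 of them and below in 1, against 12% and 13.2% of all genes. For 7 of the 18 (38.9%, against 26.2% of all genes), KO mouse 1 lay above every WT mouse. In the mesenchymal list 8 of 12 members were higher. Ccn1, a matricellular target of YAP and TAZ, was at 703 and 431 CPM in KO and at 341, 209 and 376 CPM in WT, with KO mouse 1 at 461 CPM and a log2 fold change of 0.88 (edgeR quasi-likelihood test, Benjamini-Hochberg adjusted p = 0.415). Nes was lower in KO than in WT, at 136 and 140.5 CPM in KO and at 207, 197 and 179 CPM in WT, and KO mouse 1 had 95.8 CPM. Its log2 fold change was -0.48 ± 0.15 (SE; edgeR quasi-likelihood test, Benjamini-Hochberg adjusted p = 0.404).

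Of the 26 tested interferon response genes 10 were higher and 16 lower in KO, with a median of -0.09. In 4 of them KO lay below WT, a share near the 13.2% of all genes. Ifit3, an interferon-induced gene, was at 44.6 and 62.1 CPM in KO and at 136, 143 and 104 CPM in WT (log2 fold change -1.25 ± 0.22, SE; edgeR quasi-likelihood test, Benjamini-Hochberg adjusted p = 0.0739). Its near-identical neighbour Ifit3b was at 14.9 and 21.2 CPM in KO and at 63.5, 54.7 and 37.6 CPM in WT. KO lay below WT for both, but 80.1% and 87.8% of their UMIs sat in values that were not whole, so how reads were divided between them is uncertain. Isg15, a ubiquitin-like interferon target, was at 302 and 401 CPM in KO and at 589, 516 and 446 CPM in WT, with KO mouse 1 inside the WT range at 502 CPM.

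MHC class I genes had 11 of 15 members higher in KO, 5 with KO above WT (against 12% of all genes), a median of 0.16 and 0 called. In 6 of the 15 (40%, against 26.2% of all genes), KO mouse 1 lay above every WT mouse, and in 5 (33.3%, against 40.3%) below. Psmb9, an immunoproteasome subunit, was at 117 and 141 CPM in KO and at 80.2, 92.1 and 81.0 CPM in WT, with KO mouse 1 inside the WT range at 87.7 CPM (log2 fold change 0.61; edgeR quasi-likelihood test, Benjamini-Hochberg adjusted p = 0.379). All 6 tested MHC class II genes had a fitted fold change above 0, with a median of 0.54. In 1 of them, H2-DMa, KO lay above WT, and the other 5 overlapped. KO mouse 1 lay below every WT mouse in 6 of 6, against 40.3% of all genes. The summed class II level was 558 and 837 CPM in KO and 298, 836 and 311 CPM in WT, where the immune cells of the 7 mice had 11850 to 21820 CPM. These UMIs were unevenly spread, with 680 of 4641 over all 384 tumour or stromal cells in 1 cell. The part of RNA from other cells in these values was not tested.

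Receptors had 13 of 18 members higher in KO, 6 with KO above WT (against 12% of all genes), and a median of 0.29. In 8 of the 18 (44.4%, against 26.2% of all genes), KO mouse 1 lay above every WT mouse, and in 4 (22.2%, against 40.3%) below. Tgfbr2, a TGF-beta receptor, was at 37.9 and 40.4 CPM in KO and at 26.7, 23.5 and 22.7 CPM in WT, and Ifnar2, a type I interferon receptor chain, at 66.4 and 51.3 CPM against 36.3, 41.7 and 32.8 CPM. KO mouse 1 was at 26.5 CPM for Tgfbr2, inside the WT range, and at 42.8 CPM for Ifnar2, just above it. Ligands were divided, 14 higher and 13 lower, with a median of 0.02. Ccl2, a monocyte chemoattractant, was at 29.0 and 42.1 CPM in KO and at 103, 104 and 43.7 CPM in WT, where WT mouse 3 was next to KO. Spp1 was at 1352 and 1104 CPM in KO and at 874, 923 and 754 CPM in WT, and KO mouse 1 at 875 CPM was inside the WT range. None of these 4 genes passed the test.

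Sialic acid genes had 6 members higher and 9 lower of 15, with a median of -0.14. St3gal5, the synthase of the ganglioside GM3, was at 48.7 and 37.0 CPM in KO and at 31.5, 21.5 and 24.4 CPM in WT (log2 fold change 0.77 ± 0.24, SE; edgeR quasi-likelihood test, Benjamini-Hochberg adjusted p = 0.379). Checkpoint and phagocytosis ligands had 6 of 7 members lower, with a median of -0.19 and 0 called. The 4 tested NK cell receptor ligands were divided evenly, and tumour suppressor genes had 5 higher and 4 lower.

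Of the glycolysis and hypoxia list 14 of 20 members were higher in KO, with a median of 0.24. KO mouse 1 lay above every WT mouse in 16 of the 20 (80%, against 26.2% of all genes tested). Bnip3, a mitophagy gene induced by the factor HIF, was at 555 CPM in KO mouse 1, 204 in KO mouse 2, 550.2 in KO mouse 4 and 104, 279 and 261 in the WT mice. Car9, a carbonic anhydrase of hypoxic cells, was at 61.2, 1.47 and 27.8 CPM in the same KO mice and 3.82, 5.38 and 3.36 CPM in the WT mice. KO mice 1 and 4 were high and KO mouse 2 was level with or below the WT mice for both genes. Both were named after their values were seen. Ndrg1, also induced by hypoxia, was at 66.9 and 99.3 CPM in KO mice 2 and 4 and at 61.1, 47.0 and 38.6 CPM in WT. The 13 dissociation stress genes, immediate early genes that respond to tissue handling, had 5 higher and 8 lower in KO, with a median of -0.28.

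**Figure D4:**
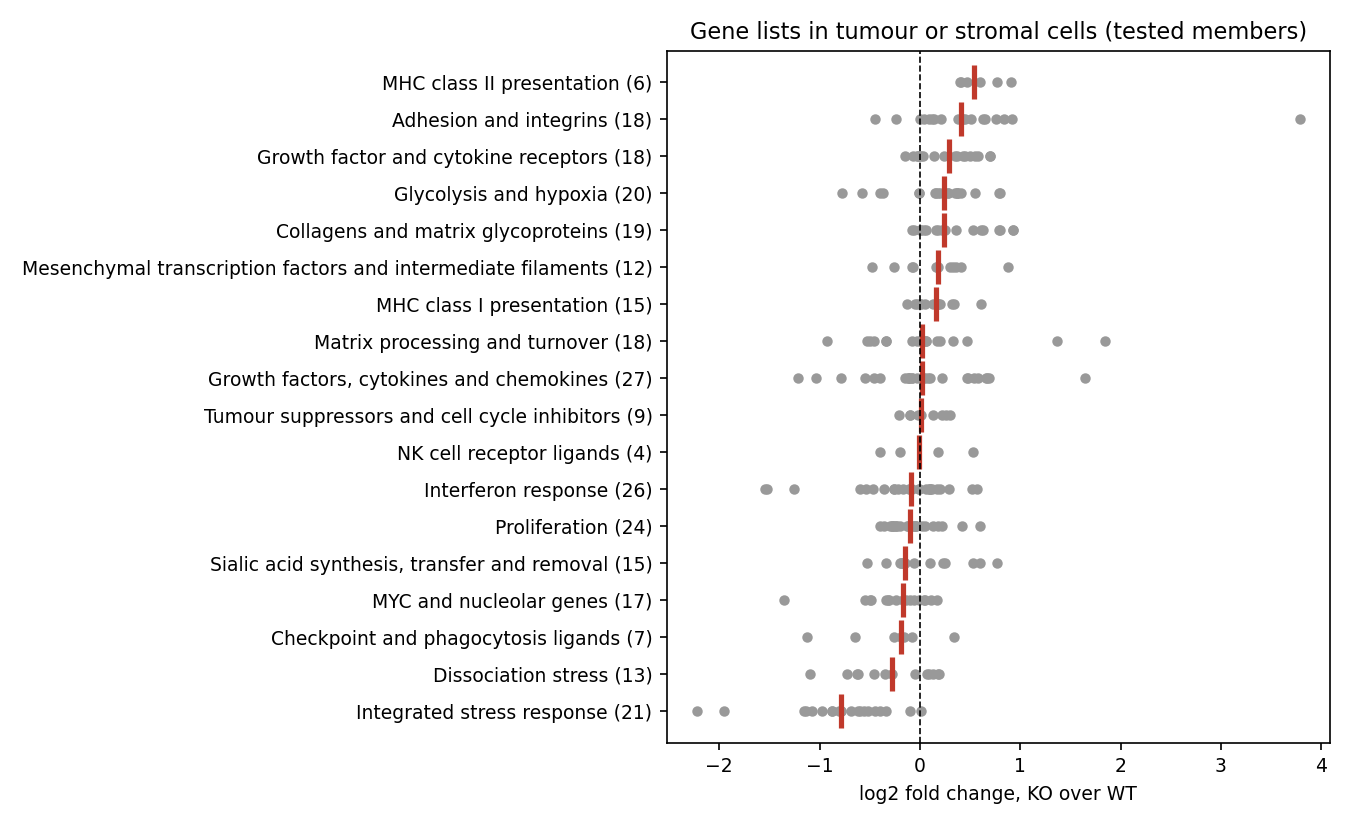
Fitted log2 fold change of KO over WT for the tested members of each gene list (grey points, number of members in brackets) with the list's median (red bar). The integrated stress response list has the lowest median at -0.79 and MHC class II the highest at 0.54, and the single point near 4 is Thy1.

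The levels of the tumour or stromal cells also differed from the immune cells by chromosome, a pattern looked at after the values were seen. For 9634 expressed genes with a known position, the log2 ratio to the immune mean was taken and the median per chromosome was set relative to the median of the autosomes. Chromosome 14 was lowest, at -0.95 over 305 genes, with the 5 mice between -0.96 and -0.86 and the immune annotations between -0.10 and 0.08. Of its 305 genes, 248 lay below the autosomal median. Chromosome 3 was highest, at 0.78 over 494 genes, with the mice between 0.60 and 0.94, and chromosome 19 followed at 0.46 over 368 genes, with the mice between 0.38 and 0.50. The immune annotations lay between -0.06 and 0.06 for chromosome 3 and between -0.14 and 0.09 for chromosome 19. In all 5 mice of both genotypes these 3 chromosomes lay outside the immune range and in the same direction.

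Smaller shifts were seen for chromosome 8, at 0.21, and chromosome 17, at -0.21, both outside the immune range in every mouse. Chromosome 6 at -0.22 lay within the immune range of -0.28 to 0.03. Each chromosome was also cut into 3 consecutive parts with equal numbers of genes. The medians of the parts were -0.80, -1.17 and -0.94 for chromosome 14, 0.80, 0.75 and 0.84 for chromosome 3, and 0.45, 0.25 and 0.64 for chromosome 19. They were 0.14, 0.27 and 0.22 for chromosome 8, and 0.04, -0.46 and -0.20 for chromosome 17, whose first part was thus not lowered. Chromosome copy number was not measured.

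**Figure D5:**
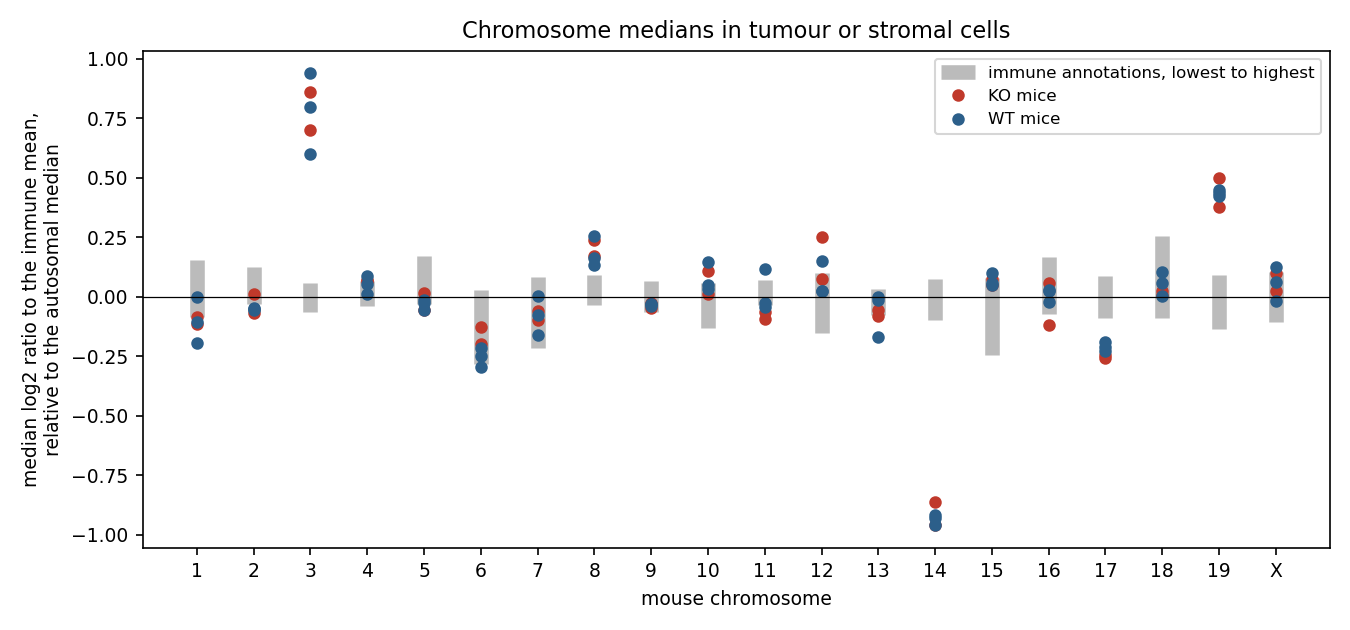
Median log2 ratio to the immune mean per mouse chromosome, relative to the autosomal median, for the tumour or stromal cells of the 5 mice (red KO, blue WT), with grey bars from the lowest to the highest of the 22 immune annotations. Chromosome 3 lies between 0.60 and 0.94, chromosome 19 between 0.38 and 0.50 and chromosome 14 between -0.96 and -0.86 in the 5 mice.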

How the data were processed

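The deposited table held UMIs per gene and cell as estimated counts made by the authors with STARsolo, with values that need not be whole. The submitters' processing notes name FastQC 0.11.5, STAR 2.7.10a, STARsolo and genome build mm10. How cells were filtered, how doublets were treated and how the annotation was made is not given in the sources used here, and no doublet caller was run. The authors' second deposited table gave, per cell, the annotation, the cell cycle call, the count of detected genes, the percent of mitochondrial and ribosomal UMIs and positions in a tSNE embedding (a score that was not used). In the tumour or stromal cells 5.74% of values above 0 were not whole, and these held 13.9% of UMIs. Values were above 0 in 21510 of 55491 gene rows. A symbol shared by several gene IDs stands for the row with the most UMIs.

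UMIs of the tumour or stromal cells were summed per mouse, rounded and tested with edgeR 4.0.16 (TMM scaling, filterByExpr, robust quasi-likelihood test, R 4.3.3) across 10431 genes, KO against WT, in libraries with at least 20 such cells, with genes called where p, after Benjamini-Hochberg adjustment, was under 0.05. The test was checked on simulated data. Single values per mouse were compared with exact permutation tests, and the exact intervals of the shares came from scipy 1.17.1. The level of an immune annotation is the mean CPM over the mice with at least 20 of its cells. Thinning, sub-clustering (scanpy 1.11.5) and plots (matplotlib 3.10.9) used fixed seeds. Gene positions were read for 53292 of the 55491 rows (96.0%) from the GENCODE M21 annotation, and promoters from RefSeq. The alternatives were DESeq2 1.42.0, other scaling, filters and cell sets, the sex of the host as a term and the replicate number as a block.

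The genes named are the 20 with the largest ratio to the highest immune annotation, the called genes, for each list the 4 members with the highest level and up to 3 tested members without overlap by size of fold change, the cell type markers, and Sparc, Siglece, Sall1, Ptprc, Itgam, Thy1, Chac1, Nme1 and the sex-linked genes. The cells, gene lists and rules were chosen with earlier results of these data known.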

Additional observations from a re-analysis of the deposited data

Results flagged for a closer look

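Of 7 values checked for a mouse far from the others of its genotype, 1 stood out: leukocyte marker genes gave 0.463% of the UMIs of the tumour or stromal cells of KO mouse 3, against 0.0220% to 0.0654% in the other KO mice. That value rests on 1 cell. Its gap to the next KO mouse was 0.902 of the range over the 4 KO mice. Chance alone flags such a value now and then in groups of this size. The cell entered the comparison of shares per mouse and was left out of the other genotype tests.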

How the results depend on the processing

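The number of genes called between genotypes moved with most settings. Against 3 genes in the main edgeR test, 167 were called with no filter beyond a sum of 1 UMI, 16 with DESeq2, 7 with the sex of the host as a term, 1 with libraries of at least 10 cells and 1 in cells without a Ptprc UMI. With libraries of at least 10 cells and the replicate block 14 were called. The call was lost for all genes with 37 cells from each library (0 called, 589 at an unadjusted p under 0.05). It was also lost in S or G2M cells (0) and in G1 cells (0), 2 cell sets which, like the removal of the cell with pericyte markers, were chosen after seeing the data. Leaving out 1 library gave 0 to 25 calls. With 1 KO library left, that library is assumed to vary like the others. The cause of these moves was not tested. Same-numbered KO and WT libraries correlated at 0.029 and -0.029, and differently numbered ones at -0.092 to 0.112. Pairs this few cannot decide what libraries of equal number share. With the replicate block the difference in the share of tumour or stromal cells was -0.481 percentage points. That share turned to 0.275 with non-lymphoid cells as the denominator, and the leukocyte marker difference to -0.000207 with libraries of at least 10 cells. In G1 cells 7 of the 34 genes followed turned sign: Psat1 to 0.073, Slc7a5 to 0.079, Cebpb to 0.11, Herpud1 to 0.79, Isg15 to 0.65, St3gal5 to -0.071 and Tenm3 to -0.086. The other 586 of 593 values of these genes kept their direction. All 34 had KO and WT values that did not overlap, so leaving out 1 library could hardly turn their direction. Other scaling and DESeq2 used the same counts. Limiting the cells to those with leukocyte marker UMIs at or under 1% removed 0 cells and repeats the main test. Counts of alternatives given for single genes include these settings. The median of the integrated stress response list stayed below 0 in the 18 alternatives run, from -0.92 to -0.03. The 525 genes at least 4-fold over every immune annotation became 222 with a pseudocount of 10 CPM and 200 with a minimum of 50 CPM. The number of sub-clusters was 5, with 3 at resolution 0.3 and 9 at resolution 1. The tests rest on 5 libraries with 37 to 121 cells in each, which limits their precision.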

Other observations

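The tumour or stromal cells were themselves clustered to see how they varied, as a description with no test. They fell into 5 groups, none of which rested on enough markers to be named. The largest, with 147 cells, was led by replication-dependent histone genes such as H2ac8, H1f1 and H1f3, and 0 of its cells were called G1. It held 58 of the 103 cells of WT mouse 3. A group of 19 cells was led by H4c8 and by the immediate early genes Ier3, Zfp36, Atf3, Fosb and Egr1, which respond to stimulation and tissue handling. Egr1 was at 2699 CPM inside it and 503 CPM outside, and 11 of its cells came from WT mouse 3.

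A group of 81 cells was led by Nrn1, by the metallothionein genes Mt1 and Mt2, which bind zinc, and by Ankrd37, Apln, Bnip3 and Igfbp3, several of which respond to low oxygen. Bnip3 was at 758 CPM inside it and 144 CPM outside. It held 33 of the 57 cells of KO mouse 4 and 9 of the 17 of KO mouse 1, and 11 of the 121 of KO mouse 2. In WT mice 1, 2 and 3 it held 3 of 37, 14 of 48 and 11 of 103 cells. A group of 58 cells had weak leading genes, among them Ung and Ifit1.

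The last group had 79 cells, a median of 13142 UMIs and 55 cells called G1. It was led by Ogn and Aspn, small leucine-rich proteoglycans of matrix, and by Apod, Cd248, Col6a2, Pdgfrb and Col4a1, which are known from mesenchymal stroma. Ogn was at 118 CPM inside it and 1.47 CPM outside, and Col4a1 at 925 CPM inside and 161 CPM outside. It held 46 of the 121 cells of KO mouse 2, among them the cell with pericyte markers, and 6 of the 57 of KO mouse 4. In WT mice 1, 2 and 3 it held 12 of 37, 5 of 48 and 7 of 103 cells. An Hmga2 UMI was present in 72 of its 79 cells and an Xist UMI in 70. Its 2, 46 and 7 cells from KO mice 1 and 2 and WT mouse 3 had female hosts, where Xist gives no contrast.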
